A study of Gallus gallus with 20 samples.

Results

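The interferon response genes of the hen liver were followed across 20 RNA-seq libraries. They were taken from a list of 39 genes that vertebrate cells are known to switch on, or to use, in the response to interferon. A listed gene was kept when its symbol was in the deposited expression table and its level was above 0 in at least 4 libraries. Of the 39 listed genes, 35 were kept, out of 21749 genes in the table. IRF10, USP18, LGALS3BP and IFITM3 had no matching symbol and were not analysed here. XAF1 was kept but reached only 0.237 TPM in its highest library, so it was below the level set for testing and 34 genes were tested.

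The libraries came from the liver of Guangxi Ma hens, a Chinese chicken breed, and levels are in TPM, a transcript abundance measure scaled for transcript length and library size. The 5 groups of 4 libraries were hens aged 32 weeks, hens aged 50 weeks with high or with low laying performance, and hens aged 72 weeks with high or with low laying performance. The sample labels call the hens aged 32 weeks high layers too, while the study's design text gives them no laying class, so they are called week 32 here. No allele, drug, diet or infection is named for any group. Whether each library is a hen of its own is not stated in the labels, so p-values measure only the spread between these libraries, which may be technical.

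Interferons are secreted proteins that cells release after sensing viral or other foreign nucleic acid. Binding to their receptors activates the kinases JAK1 and TYK2, which phosphorylate STAT2 and other factors. These enter the nucleus with an IRF family partner and switch on a broad set of antiviral genes. In the liver, hepatocytes and resident macrophages both carry this response. The roles given below are known mainly from mammals, unless chicken is named.

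The libraries summed to between 764047 and 852815 TPM over the listed genes, and 17155 to 18005 genes were above 0 in each; read counts and depth are not known from this table. Hepatocyte markers were present in every library, with 9 of 10 found in the table and a summed level of 51192 to 117755 TPM, which matches the liver label. Replicate 1 of week 50 high, replicate 3 of week 50 low and replicate 2 of week 72 low were the least like the other libraries, with median rank correlations of 0.928, 0.923 and 0.923. In all 3 of these libraries the tested genes with a long genomic span were low relative to short ones, with rank correlations between the deviation from the mean and span of -0.304, -0.216 and -0.154 across genes. Replicate 4 of week 50 low, which is not among them, had -0.164. Replicate 1 of week 32 had the largest value of the other sign, 0.288.

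A score, the mean log2(TPM + 1) over the 35 genes, was computed for each library. It was 4.61 ± 0.26 (SD, n = 4) at week 32 and 5.31 ± 0.45 (n = 4) in week 50 high. It was highest on average in week 50 low, at 5.81 ± 0.38 (n = 4). At week 72 the score was 4.92 ± 0.98 (n = 4) in the high layers and 4.58 ± 0.76 (n = 4) in the low layers. The order of the group means was therefore week 50 low, week 50 high, week 72 high, week 32 and week 72 low, but the neighbours in that order overlapped. The 4 libraries of week 50 low, between 5.27 and 6.13, lay above all 4 libraries of week 32, between 4.29 and 4.92. No test is given for the score, because the genes were chosen with earlier results of these data known.

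**Figure D1:**
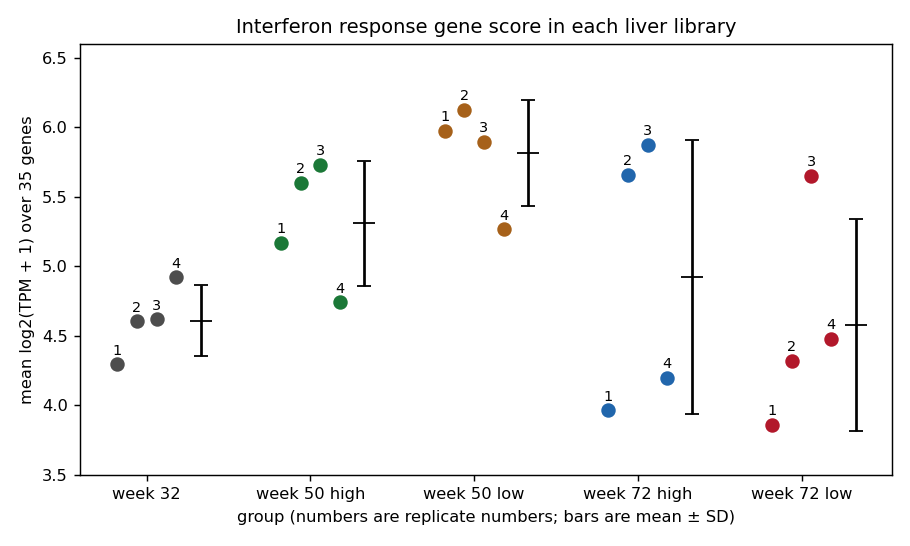
Interferon response gene score (mean log2(TPM + 1) over 35 genes, y axis) in each of the 20 libraries, by group on the x axis. Points carry their replicate number and bars are the mean ± SD of 4 libraries. Week 50 low sits at 5.27 to 6.13, above week 32 at 4.29 to 4.92, and both week 72 groups are split into high and low libraries.

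The spread in the oldest hens was wider than in the others. In week 72 high, replicates 1 to 4 scored 3.96, 5.66, 5.87 and 4.19, so that 2 libraries lay near the week 50 level and 2 below every week 32 library. In week 72 low they scored 3.86, 4.32, 5.65 and 4.48, with replicate 3 alone near the week 50 level. The largest gap between neighbouring libraries was 1.47 of a range of 1.91 in week 72 high and 1.17 of a range of 1.79 in week 72 low. It was 0.63 of 0.86 in week 50 low, where replicate 4 lay below the others, 0.43 of 0.99 in week 50 high and 0.31 of 0.63 at week 32. The libraries that led the score led most of the genes it is made of, which describes the score and is no separate evidence. Replicates 2 and 3 held the highest values of week 72 high in 31 of 34 genes (all but MYD88, SOCS1 and IFITM5). The same held for 42.2% of all tested genes. Replicate 3 was the highest library of week 72 low in 29 (all but IFI35, MYD88, TAP1, B2M and IFITM5). That was the case for 37.4% of all tested genes. Replicate 3 also stood apart for VTG2, the yolk precursor vitellogenin made by the liver of laying hens, which was at 725, 95.1, 13572 and 241 TPM in replicates 1 to 4 of week 72 low. In week 72 high, where the score was split too, VTG2 was between 12212 and 16071 TPM in all 4 libraries. The part of laying state in the score was not tested.

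The median within-group SD of log2(TPM + 1) was 0.62 for the interferon response genes and 0.36 for all tested genes, and 33 of the 34 exceeded the latter.

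Each gene was tested by limma on log2(TPM + 1) over all 20 libraries, with p-values adjusted by Benjamini-Hochberg over all 12808 tested genes. With calls made under an adjusted p of 0.05, no interferon response gene was called in any of the 10 comparisons, in which at most 5 of all genes were. A gene that missed the threshold is not shown to be equal between groups. The comparisons with week 32 share its 4 libraries, and those of each week 50 group share theirs, so the comparisons below are not independent of each other. Shares of all genes without overlap were counted for single comparisons of groups. Where a gene is said to clear several groups at once, no such share was computed.

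For laying performance at week 50, limma called 0 of 34 genes, with 0.0% of all genes called, and the smallest adjusted p was 1. At an unadjusted p under 0.05 there was 1 lower gene in the high layers, LY6E, and none higher, against 0.976% of all genes lower and 1.99% higher. Of the 34 genes, 29 had a lower mean in the high layers, with a median log2 difference of -0.43, where the median of all genes was 0.05. That median was -0.27 without replicate 2 of week 50 low. The 13 tested antiviral effectors had a median log2 difference of -1.10 and were all lower in the high layers, while the 4 antigen presentation genes had a median of 0.19. RSAD2, DHX58 and LY6E were below every week 50 low library in all 4 high layer libraries, which held for 0.515% of all genes.

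Between the laying classes at week 72, limma again called 0 of 34 genes, against 0.00781% of all genes in the higher direction. None passed even an unadjusted p under 0.05, against 3.65% of all genes higher and 1.62% lower, and the smallest adjusted p was 0.987. The median log2 difference was 0.38, high minus low, beside 0.03 for all genes, and 32 of 34 means were higher in the high layers. The classes overlapped for all 34 genes. Of all 12808 tested genes, 248 lay wholly above and 126 wholly below in the high layers. Overlap was thus the rule for all genes and does not set these 34 apart. Leaving out replicate 3 of week 72 high brought the median to -0.03, and leaving out replicate 3 of week 72 low brought it to 0.71. The smallest p-values were those of SOCS1, with a log2 difference of 0.63 ± 0.36 (SE), PARP14, at 0.63 ± 0.43, and NLRC5, at 0.41 ± 0.28.

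Whether the laying difference itself changed between weeks 50 and 72 was tested as an interaction. None of the 34 was called, with 0.0% of all genes called and a smallest adjusted p of 1, and 3 were higher at an unadjusted p under 0.05, against 1.23% of all genes higher and 1.15% lower. These were LY6E, with an interaction of 1.66 ± 0.63 (SE, log2), CMPK2, with 1.92 ± 0.84, and EIF2AK2, with 1.14 ± 0.53. The median over the 34 genes was 0.76, beside -0.01 for all genes.

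From week 50 to week 72 in the low layers, all 34 means were lower at week 72, with a median log2 difference of -0.97, beside -0.09 for all genes. Limma called 0 of the 34, against 0.039% of all genes in the lower direction, with a smallest adjusted p of 0.188, that of CMPK2. With an unadjusted p under 0.05 there were 23 lower genes of 34 and none higher, against 6.6% of all genes lower and 1.93% higher. This count was 13 without replicate 1 and 29 without replicate 3 of week 72 low. Without replicate 3, 4 genes passed the adjusted threshold: CMPK2 at 0.0306, STAT2 at 0.0319, LY6E at 0.0407 and HELZ2 at 0.045. Replicate 3 was the highest library of week 72 low for each of these 4 genes, so leaving it out had to lower their means there. In that fit 95 genes of the whole table were called, against 5 with all 20 libraries. Without the 3 libraries least like the others the unadjusted count was 12. Shares of all genes at an unadjusted p were not computed for the fits with libraries left out. HELZ2, DHX58, LY6E and B2M were below every week 50 low library in all 4 week 72 low libraries, which held for 2.4% of all genes. In the high layers the same step in age gave a median of -0.32, beside -0.10 for all genes, with 0 called, 0.0% of all genes called, a smallest adjusted p of 1 and none at an unadjusted p under 0.05, where 4.01% of all genes were lower and 0.586% higher. IFITM5 alone was below every week 50 high library in all 4, which held for 3.25% of all genes. That median was -0.62 without replicate 3 and -0.07 without replicate 1 of week 72 high.

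Against week 32, the week 50 low layers had 32 of 34 higher means and a median log2 difference of 0.89, beside 0.09 for all genes. Limma called 0 of the 34, with 0.0% of all genes called and a smallest adjusted p of 0.393, that of LY6E and 3 others. By unadjusted p under 0.05, 22 were higher and none lower, against 6.72% of all genes higher and 2.19% lower, and this count was 13 without replicate 1 of week 32 and 14 without replicate 2 of week 50 low. In 14 of 34 genes all 4 week 50 low libraries lay above all 4 week 32 libraries, which held for 3.04% of all genes. These were CMPK2, HELZ2, OASL, MX1, IFIT5, RSAD2, IFI6, IFI27L2, LY6E, IRF1, IRF7, EIF2AK2, IFI35 and TAP2. Fitting only these 8 libraries, 1 gene passed the adjusted threshold: IFI6, at 3.78 ± 0.34 (SE) with an adjusted p of 0.00333. It was the only gene of the whole table called in that fit.

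The week 50 high layers had a median of 0.60 over week 32, beside 0.13 for all genes, with 32 of 34 means higher. Limma called 0, with 0.0% of all genes called and a smallest adjusted p of 0.364, that of IFI35. By unadjusted p under 0.05, 5 of 34 were higher and none lower, against 8.49% of all genes higher and 1.53% lower. That count was 3 without replicate 2 of week 32, 3 without replicate 2 or 3 of week 50 high, 13 without replicate 4 of week 50 high, and 8 or 9 without any of 4 other libraries. It was 14 with the replicate number as a block and 15 in a fit of these 2 groups alone. The shares of all genes in these alternative fits were not computed, so the 8.49% is the background only of the 5 of 34. IRF1, STAT2, IFI35, ADAR and TAP2 were above every week 32 library in all 4 libraries, which held for 7.19% of all genes.

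At week 72 the comparison with week 32 rested on libraries of unlike level. The median was 0.29 in the high layers, beside 0.04 for all genes, with 0 called against 0.00781% of all genes, a smallest adjusted p of 0.943, and none at an unadjusted p under 0.05, where 2.92% of all genes were higher and 2.3% lower. That median was 0.06 without replicate 3 and 0.51 without replicate 4 of week 72 high. In the low layers the median was -0.02, beside 0.00 for all genes, with 17 means higher and 17 lower, and it was -0.35 without replicate 3 and 0.16 without replicate 1 of week 72 low. Limma called 0 there, with 0.0% of all genes called and a smallest adjusted p of 0.604, and the 1 gene at an unadjusted p under 0.05, DHX58, was lower, where 4.4% of all genes were lower and 3.29% higher. The F test of any difference among the 5 groups called 0 of 34, against 0.00781% of all genes, and 13 had an unadjusted p under 0.05, against 8.88% of all genes. LY6E had the smallest F test p, 0.00379, with an adjusted p of 0.307.

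**Figure D2:**
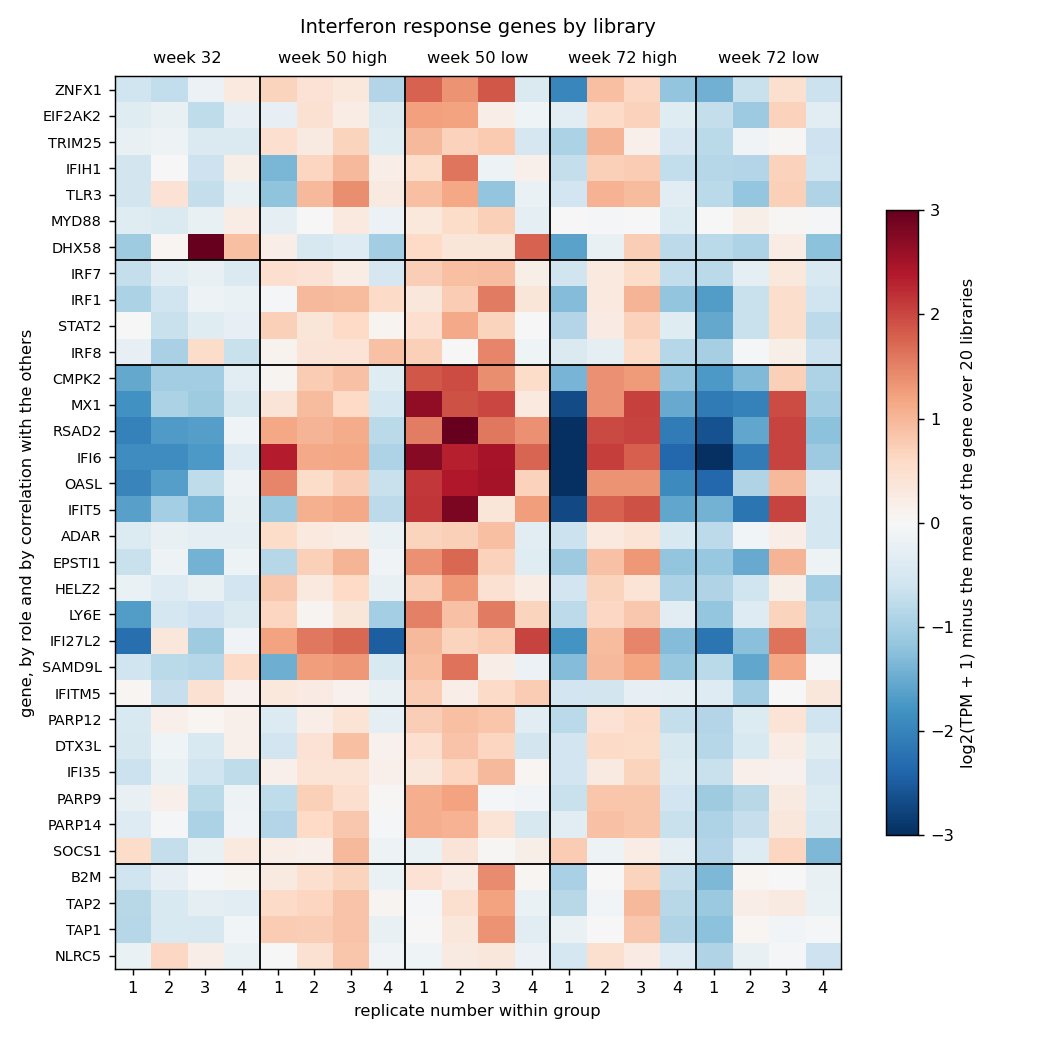
Log2(TPM + 1) of the 34 tested genes (y axis, by role from sensors at the top to antigen presentation at the bottom) in the 20 libraries (x axis, replicate numbers within the 5 groups), less each gene's mean over all libraries. Red is above and blue below the mean, with the colours ending at 3 log2 units. Replicates 2 and 3 of week 72 high and replicate 3 of week 72 low are red over most of the genes, beside blue libraries of their own groups.

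The antiviral effectors had the widest ranges of level. IFI6, listed by RefSeq also as ISG12-2 and lying on chromosome 2 at 89340072 to 89343487 of the GRCg7b assembly, codes for a small hydrophobic protein of the interferon-inducible ISG12 family. Its levels were 143, 144, 158 and 402 TPM at week 32, and 2689.5, 1146, 1176 and 274 TPM in week 50 high. In week 50 low they were 3468, 2636, 2912 and 1774 TPM. For week 72 high, IFI6 had 32.7, 2219, 1818 and 102 TPM, and in week 72 low 43.2, 121, 2139 and 248 TPM. All week 50 low libraries were thus above all week 32 libraries, and each week 72 group ran from under the week 32 levels into the week 50 low range. The week 50 low mean was 12.8 times the week 32 mean, and the fitted log2 difference was 3.78 ± 1.17 (SE, limma over 20 libraries, adjusted p = 0.425).

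RSAD2, or viperin, makes a nucleotide analogue that stops viral polymerases. It had 2.97, 4.02, 4.14 and 13.8 TPM at week 32, 35.3, 31.7, 34.0 and 8.26 TPM in week 50 high, and 45.9, 143, 47.3 and 41.1 TPM in week 50 low. Levels of RSAD2 at week 72 were 0.931, 62.8, 65.6 and 2.77 TPM for high layers and 1.67, 4.50, 65.1 and 5.98 TPM for low layers. Every week 50 low library was above every week 32 and every week 50 high library. The highest library was 154 times the lowest, more than for any other of the 34 genes.

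CMPK2, a mitochondrial nucleotide kinase, is the neighbour of RSAD2 on chromosome 3, at 94666168 to 94672677 beside 94677178 to 94685018. CMPK2 had 13.3, 19.0, 19.1 and 32.3 TPM at week 32, 42.9, 68.9, 74.7 and 30.9 TPM in week 50 high, and 149, 159, 107 and 59.1 TPM in week 50 low. It then had 14.7, 105, 99.0 and 17.2 TPM in week 72 high and 11.6, 15.6, 66.5 and 20.8 TPM in week 72 low. Week 50 low lay above week 32 without overlap, while replicate 3 of week 72 low lay within the week 50 low range. Its log2 difference was 2.41 ± 0.60 (SE) for week 50 low over week 32, with an adjusted p of 0.393 by limma. Between week 72 low and week 50 low it was -2.25 ± 0.60.

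OASL, the chicken's oligoadenylate synthase gene, makes the signal that activates RNase L. Its levels were 19.8, 24.8, 47.0 and 72.7 TPM at week 32, 225, 118, 136 and 50.5 TPM in week 50 high, and 354, 432, 459 and 130.3 TPM in week 50 low. OASL then had 7.16, 206, 208 and 20.7 TPM in week 72 high and 14.9, 42.7, 159 and 61.4 TPM in week 72 low. The replicates that were high for IFI6 at week 72 were high here too, and week 50 low again lay above week 32 without overlap.

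LY6E, a membrane protein anchored by a lipid that restricts coronavirus entry in mammals, had the highest mean level of the 34 genes. It had 610.4, 1355, 1251 and 1436 TPM at week 32, 3046, 2038, 2500.0 and 958 TPM in week 50 high, and 5554, 3552, 5686 and 3104 TPM in week 50 low. In week 72 high, LY6E had 1127, 2993, 3424 and 1536 TPM, and in week 72 low 864, 1476, 3075 and 1066 TPM. Week 50 low stood above week 32, week 50 high and week 72 low in every library. The margin was narrow for the last 2, with 3104 TPM against 3046 TPM in week 50 high and 3075 TPM in week 72 low. The log2 difference of LY6E was 1.97 ± 0.44 (SE) over week 32 and -1.14 ± 0.44 for week 50 high minus week 50 low, with adjusted p-values of 0.393 and 1 by limma. LY6E, IFI6 and B2M together made 67.3% to 81.9% of the summed level of the 35 genes.

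MX1, a dynamin-like GTPase, ranged from 1.82 to 114 TPM and IFIT5, which binds viral RNA ends, from 10.2 to 521 TPM. Their week 50 low means were 8.56 and 7.55 times those of week 32. IFI27L2, the second ISG12 family gene, ranged from 25.6 to 595 TPM and was lowest in replicate 4 of week 50 high. HELZ2, a helicase and nuclear receptor co-activator, was below every week 50 low library in all 4 week 72 low libraries, with a log2 difference of -1.27 ± 0.34 (SE, adjusted p = 0.198 by limma). SAMD9L and EPSTI1, both interferon-induced, reached 16.4 and 63.3 TPM, and ADAR, which edits double-stranded RNA, ranged from 13.8 to 46.4 TPM.

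IFITM5, in mammals a bone protein of the IFITM family, differed from the other effectors. It had 10.6, 5.82, 14.2 and 11.1 TPM at week 32, 12.8, 12.3, 11.1 and 8.54 TPM in week 50 high, and 17.95, 11.7, 15.5 and 17.9 TPM in week 50 low. Levels of IFITM5 at week 72 were 6.42, 6.59, 8.37 and 8.26 TPM for high layers and 7.54, 4.38, 10.2 and 13.0 TPM for low layers. Week 72 high was below week 50 high in every library, and the libraries high for IFI6 at week 72 did not stand out. The difference between these groups was -0.53 ± 0.27 (SE, log2, adjusted p = 1 by limma).

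**Figure D3:**
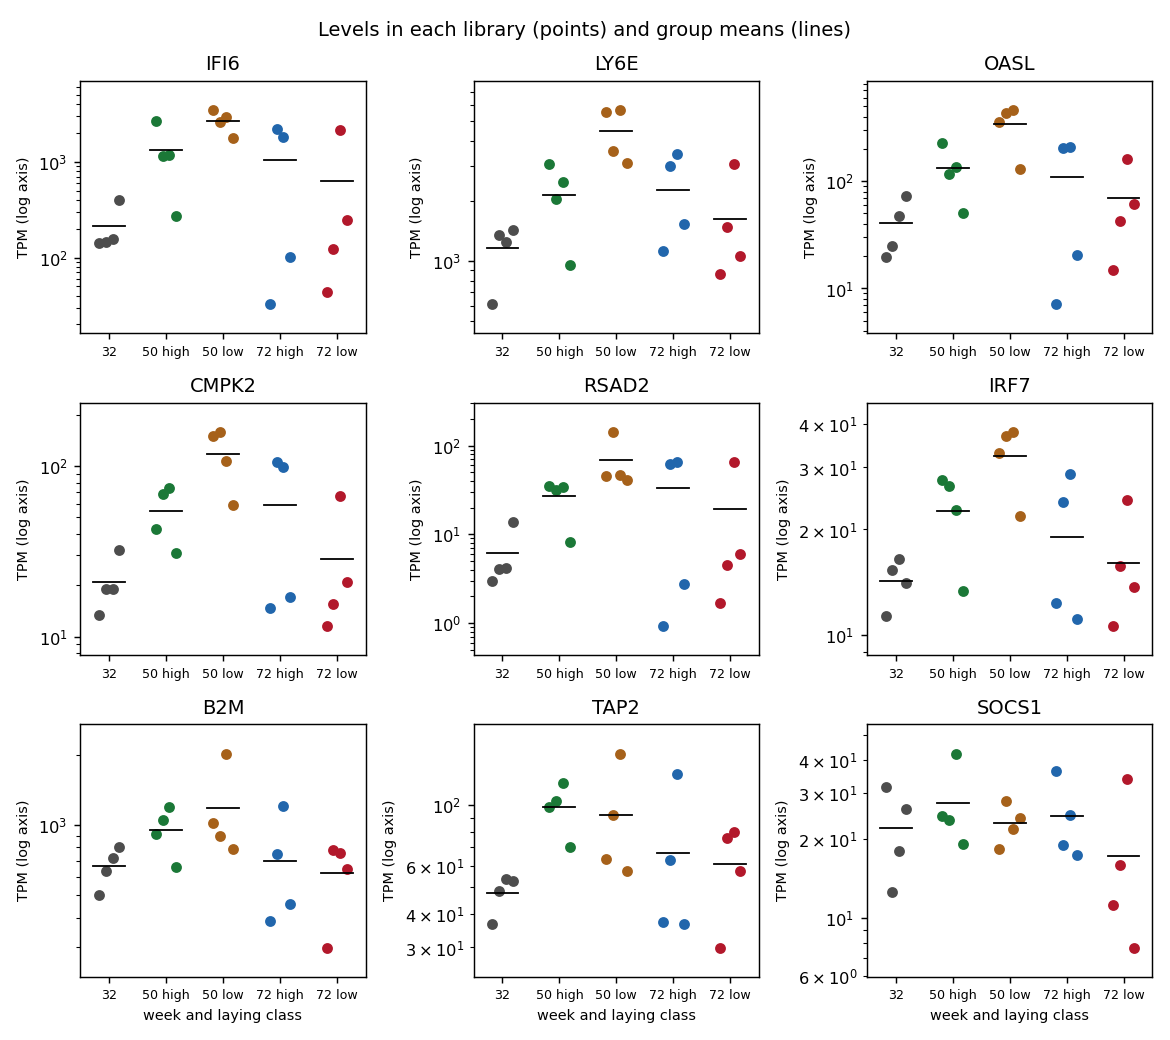
TPM (log axis) of 9 genes in each library (points), with group means as lines, by week and laying class on the x axis. IFI6 runs from 32.7 to 3468 TPM and RSAD2 from 0.931 to 143 TPM, and the high points of the week 72 groups lie among those of week 50.

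The sensors and adaptors were expressed at lower levels. ZNFX1, a helicase that senses viral RNA at mitochondria, had 19.5, 17.4, 26.5 and 37.2 TPM at week 32, 48.3, 41.0, 37.5 and 15.8 TPM in week 50 high, and 104, 77.2, 111 and 21.8 TPM in week 50 low. ZNFX1 then had 6.90, 56.8, 46.8 and 12.6 TPM in week 72 high and 10.4, 18.6, 42.2 and 18.8 TPM in week 72 low. In week 50 low, 3 libraries were above all others in the study and replicate 4 was within the week 32 range.

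IFIH1, or MDA5, is a cytosolic sensor of long double-stranded RNA and carries this task in chickens, which lack RIG-I. Its levels were 10.6, 15.9, 10.1 and 18.3 TPM at week 32, 5.58, 25.5, 32.7 and 18.7 TPM in week 50 high, and 24.1, 50.7, 14.4 and 17.9 TPM in week 50 low. For week 72 high, IFIH1 had 9.37, 27.0, 28.1 and 9.24 TPM, and in week 72 low 8.47, 8.26, 26.5 and 10.3 TPM. The groups overlapped, and the lowest library of the study was replicate 1 of week 50 high, which was high for IFI6. TLR3, the endosomal sensor of double-stranded RNA, had its lowest value, 3.58 TPM, in the same library and its highest, 26.9 TPM, in replicate 3 of that group.

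EIF2AK2, or PKR, shuts down translation when it binds double-stranded RNA. It ranged from 11.6 to 62.1 TPM and lay above week 32 in all 4 week 50 low libraries. TRIM25, a ubiquitin ligase acting on RNA sensors, ranged from 14.1 to 58.3 TPM. MYD88, the adaptor of most Toll-like receptors, ranged from 13.8 to 32.1 TPM, the narrowest range of the 34 genes on the log2 scale, and its mean over the week 50 low libraries was only 1.49 times that of week 32.

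Among the transcription factors, IRF1, which drives antigen presentation and antiviral genes, had 27.99, 35.8, 49.0 and 47.6 TPM at week 32. It had 53.5, 108, 107 and 81.0 TPM in week 50 high and 69.8, 93.6, 163 and 70.5 TPM in week 50 low. Levels of IRF1 at week 72 were 21.6, 66.9, 111 and 23.4 TPM for high layers and 16.3, 33.7, 78.5 and 35.4 TPM for low layers. All 8 week 50 libraries were above all 4 week 32 libraries. Of all genes, 7.19% lay wholly above week 32 in week 50 high and 3.04% in week 50 low. The share that did so in both was not computed. The log2 difference from week 32 was 1.09 ± 0.48 (SE) in the high layers and 1.23 ± 0.48 in the low layers, with adjusted p-values of 0.462 and 0.478 by limma.

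IRF7, the factor that amplifies interferon production and that RefSeq lists for chicken also under the name IRF3, had 11.3, 15.3, 16.5 and 14.1 TPM at week 32 and 33.01, 36.9, 37.9 and 21.8 TPM in week 50 low. It had 27.6, 26.5, 22.8 and 13.4 TPM in week 50 high, 12.3, 23.9, 28.7 and 11.1 TPM in week 72 high, and 10.7, 15.8, 24.3 and 13.7 TPM in week 72 low. Only week 50 low cleared the week 32 range in every library.

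STAT2, a factor of the interferon-activated complex, had 15.5, 9.35, 11.8 and 12.8 TPM at week 32, 25.7, 19.999, 23.6 and 16.3 TPM in week 50 high, and 22.3, 35.1, 24.9 and 15.2 TPM in week 50 low. STAT2 then had 7.90, 18.3, 25.4 and 11.8 TPM in week 72 high and 4.70, 9.40, 22.6 and 8.44 TPM in week 72 low. Week 50 high was above week 32 in every library, and replicate 4 of week 50 low was not.

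IRF8, a factor of macrophages, dendritic cells and B cells, had 71.1, 42.5, 126 and 53.2 TPM at week 32, 91.5, 111, 113 and 158 TPM in week 50 high, and 141, 85.2, 237 and 77.2 TPM in week 50 low. It had 62.7, 69.8, 127 and 46.4 TPM in week 72 high and 42.3, 82.7, 95.9 and 54.3 TPM in week 72 low. Its highest value, in replicate 3 of week 50 low, stood well above the rest, and the groups overlapped.

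The 6 tested genes of ubiquitin and ADP-ribose signalling and feedback had a median log2 difference of -0.31 between high and low layers at week 50 and of 0.49 at week 72. SOCS1, which blocks JAK kinases and so ends the response, had 31.6, 12.5, 18.1 and 26.1 TPM at week 32, 24.6, 23.7, 42.5 and 19.1 TPM in week 50 high, and 18.3, 28.02, 21.8 and 24.002 TPM in week 50 low. In week 72 high, SOCS1 had 36.5, 19.0, 24.8 and 17.4 TPM, and in week 72 low 11.2, 15.9, 33.9 and 7.70 TPM. It followed the other genes in replicate 3 of week 72 low but not in week 72 high, where replicate 1, the lowest library for IFI6, had the most SOCS1.

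PARP9 and DTX3L form a complex that ubiquitinates histones, and PARP14 is an ADP-ribosyl transferase of the same family. These 3 genes are neighbours on chromosome 7, and the spans of DTX3L (27874095 to 27879726) and PARP9 (27879519 to 27887997) overlap by 208 bases, so reads there could be assigned to either gene. PARP9 had 18.1, 23.5, 11.7 and 19.0 TPM at week 32, 12.01, 35.2, 30.6 and 21.7 TPM in week 50 high, and 46.7, 50.6, 20.3 and 19.98 TPM in week 50 low. Levels of PARP9 at week 72 were 12.9, 38.3, 38.6 and 14.0 TPM for high layers and 9.68, 11.5, 26.0 and 15.7 TPM for low layers. In both week 50 groups some libraries were within the week 32 range. PARP14 ranged from 13.8 to 59.5 TPM, DTX3L from 14.8 to 52.8 TPM and PARP12, another family member, from 16.8 to 59.7 TPM.

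IFI35 binds NMI and modulates innate signalling. It had 45.8, 63.3, 47.6 and 42.3 TPM at week 32, 81.1, 96.4, 97.1 and 80.5 TPM in week 50 high, and 92.1, 114, 144 and 74.9 TPM in week 50 low. IFI35 then had 48.7, 87.7, 116 and 53.4 TPM in week 72 high and 44.9, 81.0, 79.1 and 50.6 TPM in week 72 low. All 8 week 50 libraries were above all 4 week 32 libraries, with log2 differences of 0.83 ± 0.27 (SE) in the high and 1.05 ± 0.27 in the low layers, at adjusted p-values of 0.364 and 0.393 by limma. As for IRF1, the share of all genes that cleared week 32 in both classes was not computed.

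Of the 4 antigen presentation genes, 3 had a higher mean log2 level in the high than in the low layers at week 50, unlike the effectors. B2M, the light chain of class I molecules, had 499, 635, 722 and 800.5 TPM at week 32, 913, 1048, 1199 and 660.2 TPM in week 50 high, and 1017, 895, 2026 and 789.6 TPM in week 50 low. In week 72 high, B2M had 386, 747, 1209 and 457 TPM, and in week 72 low 297, 783, 754 and 644 TPM. All 4 week 72 low libraries were below all 4 week 50 low libraries, the difference being -0.92 ± 0.37 (SE, log2, adjusted p = 0.486 by limma).

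TAP1 and TAP2 code for the subunits of the transporter that brings peptides to class I molecules, and lie 70 bases apart on chromosome 16. TAP1 had 17.5, 23.4, 23.2 and 30.8 TPM at week 32, 55.6, 54.9, 59.7 and 27.98 TPM in week 50 high, and 32.1, 41.8, 85.1 and 26.0 TPM in week 50 low. Levels of TAP1 at week 72 were 28.2, 32.9, 57.9 and 16.8 TPM for high layers and 13.2, 33.9, 31.0 and 31.6 TPM for low layers. Replicate 4 of both week 50 groups was within the week 32 range, and the other 6 week 50 libraries were above it.

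TAP2 had 36.6, 48.4, 53.6 and 52.5 TPM at week 32, 98.4, 104, 121 and 70.3 TPM in week 50 high, and 63.3, 92.2, 155 and 57.5 TPM in week 50 low. TAP2 then had 37.1, 62.8, 131 and 36.6 TPM in week 72 high and 30.0, 75.8, 79.5 and 57.5 TPM in week 72 low. All 8 week 50 libraries were above week 32, with log2 differences of 1.02 ± 0.38 (SE) in the high and 0.83 ± 0.38 in the low layers, at adjusted p-values of 0.376 and 0.535 by limma. Here too the share of all genes that did so in both classes was not computed. NLRC5, in mammals the transactivator of class I genes, had the lowest level of the group, from 4.40 to 17.1 TPM, and did not differ in mean between week 50 low and week 32 beyond its error, at -0.03 ± 0.28 (SE, log2).

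Gene by gene, the group mean was highest in week 50 low for 28 of the 34 genes, in week 50 high for 5 (NLRC5, TLR3, SOCS1, TAP1 and TAP2) and at week 32 for DHX58. It was lowest at week 32 for 18 genes, in week 72 low for 15 and in week 72 high for IFITM5. The same counts over all tested genes were not computed. The 34 genes varied together, as given below, so these counts are not 34 separate results.

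The 34 genes varied together from library to library. Over the 20 libraries, which share their scaling to a fixed total, the median Pearson correlation of log2(TPM + 1) between 2 of them was 0.69 over 561 pairs, and 76.3% of the pairs exceeded 0.5. For all tested genes the median was 0.13, and 10.7% exceeded 0.5. After the group means were taken out the median among the interferon response genes was 0.62. The closest pair was RSAD2 and IFI6, at 0.97, on different chromosomes, and the neighbours CMPK2 and RSAD2 reached 0.96, as TAP1 and TAP2 reached 0.95.

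Against the mean of the other 33, CMPK2 had the highest correlation, 0.98, followed by MX1 at 0.97, RSAD2 at 0.96 and IFI6 at 0.94. The lowest were IRF8 at 0.61, MYD88 at 0.55, IFITM5 at 0.47, SOCS1 at 0.37 and DHX58 at 0.33. Within roles, the median correlation was 0.83 among antiviral effectors, 0.82 among transcription factors, 0.79 among antigen presentation genes, 0.73 among the ubiquitin, ADP-ribose and feedback genes and 0.51 among sensors and adaptors.

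**Figure D4:**
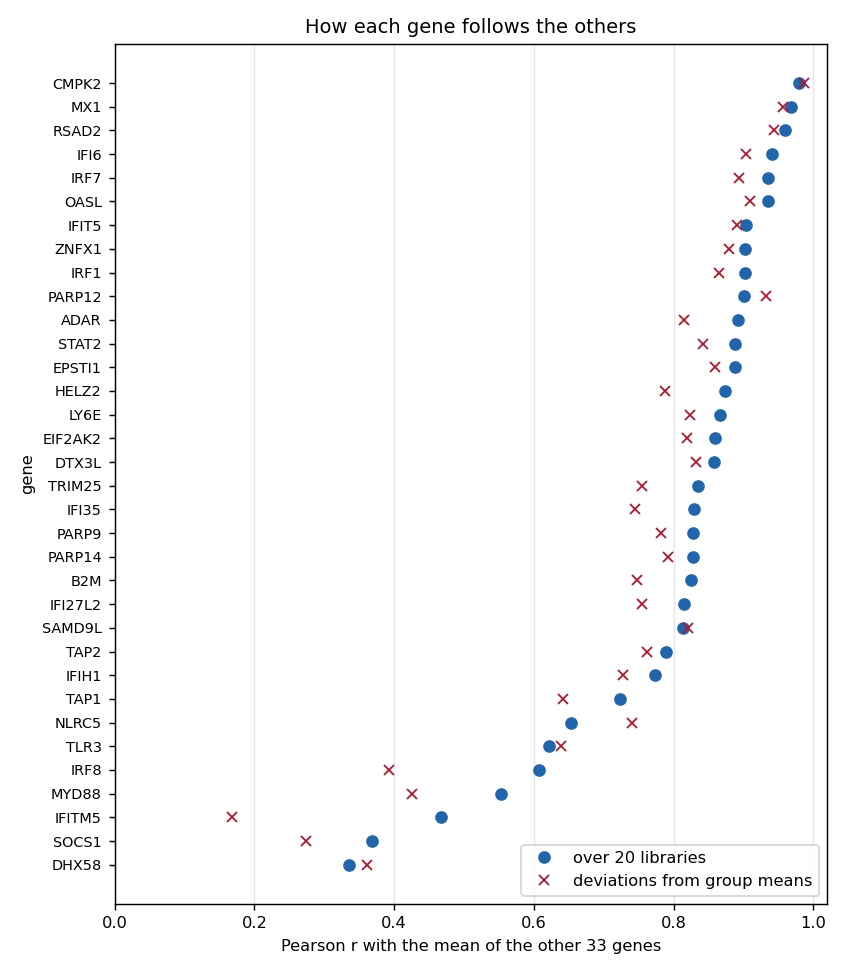
Pearson correlation of each gene with the mean of the other 33 genes (x axis) for the 34 tested genes (y axis), over the 20 libraries (circles) and over the deviations from the group means (crosses). CMPK2 is at 0.98 and DHX58 at 0.33 over the libraries.

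Replicate 1 of week 50 high was the highest of its group for 11 genes (HELZ2, IRF7, OASL, RSAD2, STAT2, DHX58, ZNFX1, ADAR, IFI6, LY6E and IFITM5) and the lowest for 12 (IRF1, IRF8, IFIT5, IFIH1, PARP9, PARP12, PARP14, DTX3L, SAMD9L, EPSTI1, TLR3 and MYD88). The shares of all tested genes for which it was the highest or the lowest were not computed, so this split is not shown to be particular to these genes. The median genomic span of the first set was 6071 bases and that of the second 9046 bases. Across the 34 genes, the rank correlation of the deviation with span in this library was -0.409, and it was -0.454 in replicate 4 of week 50 low. The sign was the other way in replicates 1 and 2 of week 32, at 0.262 and 0.424. The part of span in these values was not tested.

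DHX58, or LGP2, the regulator of MDA5 signalling, was the gene least like the others. It had 3.67, 9.14, 99.8 and 17.4 TPM at week 32, 10.2, 6.09, 6.54 and 3.78 TPM in week 50 high, and 13.8, 11.6, 11.5 and 32.2 TPM in week 50 low. In week 72 high, DHX58 had 2.23, 7.44, 15.3 and 4.70 TPM, and in week 72 low 4.60, 4.18, 10.4 and 3.17 TPM. Replicate 3 of week 32 was far above all others, and week 50 low was above week 50 high and week 72 low in every library. Against week 32 the log2 difference was -1.50 ± 0.67 (SE) in week 72 low and -1.28 ± 0.67 in week 72 high. Without replicate 3 of week 32 these were -0.65 and -0.43.

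DHX58 lies on chromosome 27 at 4817341 to 4825305, next to KAT2A, a histone acetyltransferase gene, at 4825442 to 4831268, and near HSPB9, a small heat shock protein gene, at 4833671 to 4834515. In replicate 3 of week 32, KAT2A was at 157 TPM, against 4.99 to 67.5 TPM in the other libraries, and HSPB9 at 11798 TPM, against 2.37 to 5381 TPM. RAB5C and NKIRAS2, on either side of these genes, were at 47.7 and 41.0 TPM there, near or below the other libraries. Over the 20 libraries, DHX58 correlated at 0.82 with KAT2A and at 0.56 with HSPB9. Without replicate 3 of week 32 and replicate 4 of week 50 low, the correlation of DHX58 was 0.65 with KAT2A, 0.34 with HSPB9 and 0.72 with the mean of the other interferon response genes (18 libraries). These neighbours were chosen after their values were seen, and the strand setting of the counting is not known here, so reads of adjoining genes cannot be told apart.

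**Figure D5:**
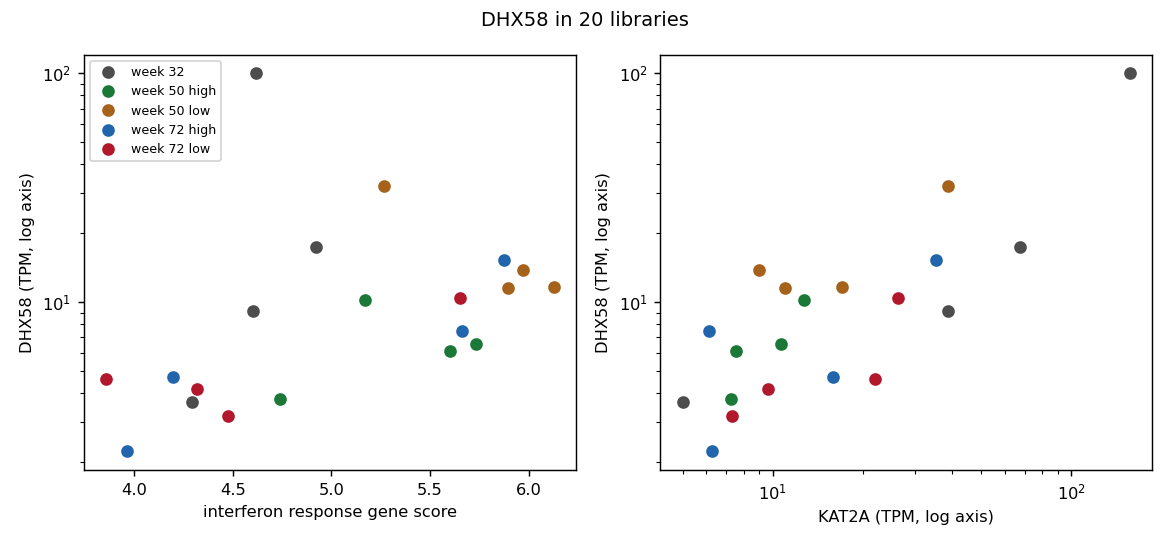
DHX58 (TPM, log y axis) in the 20 libraries against the interferon response gene score (left) and against its neighbour KAT2A (TPM, log x axis, right), coloured by group. The library at 99.8 TPM of DHX58 has the highest KAT2A, 157 TPM, and a middling score of 4.62.

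Other genes of the pathway were counted from lists by role. Of 9 interferon gene symbols, some of which may name the same gene, 3 were in the table and 2 were tested. IFNW1 was listed at 0 in 9 libraries. It reached 4.80 TPM in replicate 3 of week 72 low, the library of that group with the highest score. For week 72 high it was listed at 0, 1.75, 3.55 and 0 TPM in replicates 1 to 4. Replicates 1 to 4 of week 50 low scored 5.97, 6.13, 5.89 and 5.27. IFNW1 was listed there at 0, 3.59, 0.194 and 1.69 TPM. IFNG, the interferon of T and NK cells, had at most 3.26 TPM, in replicate 2 of week 50 high. IFNL3A was at most 0.456 TPM. Neither tested gene was called in any comparison. IFNG had a log2 difference of -0.77 ± 0.33 (SE) for week 72 low minus week 50 low, with an unadjusted p of 0.032 and an adjusted p of 0.521 by limma.

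Of 9 receptor and kinase genes 8 were tested, and none was called in any comparison. TYK2 had the smallest F test p among them and ranged from 6.03 to 14.1 TPM. Of 9 further signal factors none was called.

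In the sensor pathway 13 symbols were listed, of which STING1 and MB21D1 are other names of TMEM173 and CGAS. All 11 genes were tested and none was called. TMEM173, or STING, the adaptor of DNA sensing, had between 0.812 and 6.65 TPM, while CGAS, which makes its ligand, had between 1.91 and 8.40 TPM. The first followed the score with a correlation of 0.94 and the second did not, at 0.05 (20 libraries). These were the highest and the lowest correlations of the 11 genes, with TLR21 at 0.70 and IKBKE at 0.61 between them. CGAS was not among the genes of this list with the smallest F test p.

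Among 30 further interferon-induced genes, 21 were tested and none was called. At an unadjusted p under 0.05, 8 of the 21 were higher in week 50 low than at week 32, where 6.72% of all tested genes were. In week 50 high 4 of the 21 were higher than at week 32, against 8.49% of all genes, and in week 72 low 7 were lower than in week 50 low, against 6.6%. RNF213, a ubiquitin ligase, had a log2 difference of 1.52 ± 0.44 (SE) for week 50 low over week 32. MOV10, an RNA helicase, had 1.18 ± 0.40 and GBP4L, a guanylate-binding protein gene, had 1.33 ± 0.50 in the same comparison, with adjusted p-values of 0.425 and 0.474 by limma. RNF213, MOV10 and GBP4L were picked from the 21 for the smallest F test p, which favours large group differences.

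Of 12 further antigen presentation genes 8 were tested. None was called, and all 8 means were higher in each week 50 group than at week 32, with medians of 0.77 in the high and 0.75 in the low layers. TAPBP, which loads peptides onto class I molecules, had 80.5, 70.7, 102 and 103 TPM at week 32 and 187, 154, 162 and 132 TPM in week 50 high, without overlap. PSME1, a proteasome activator subunit, had 115, 129, 88.7 and 118 TPM at week 32 and 175, 169, 221 and 142 TPM in week 50 high, also without overlap. Of all tested genes, 7.19% lay wholly above week 32 in week 50 high. In week 50 low TAPBP had 142, 163, 264 and 106 TPM, again above week 32, which held for 3.04% of all genes. PSME1 had 119, 154, 152 and 91.4 TPM there and overlapped week 32. TAPBP and PSME1 were picked as the genes of this list with the smallest F test p. The pick favours genes whose groups lie apart, so their separation is no separate evidence. Overlap was not counted for the other genes of this list. Of 6 suppressors, such as SOCS3 and NFKBIA, none was called.

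Among the 10 tested genes outside the list that were most like the score over the 20 libraries were SLBP at a correlation of 0.97, PATL2 and LOC100858381 at 0.96, LYGL and LOC415756 at 0.95, TMEM173 at 0.94, and LOC416147, USP41 and LOC107055361 at 0.93. SLBP, which binds the stem-loop of histone mRNA, had 0.948, 1.76, 1.09 and 2.57 TPM at week 32, 3.79, 5.67, 8.45 and 1.95 TPM in week 50 high, and 9.78, 13.7, 14.5 and 3.06 TPM in week 50 low. SLBP then had 0.617, 4.96, 7.72 and 0.613 TPM in week 72 high and 0.631, 0.996, 6.37 and 1.40 TPM in week 72 low. At week 72 the libraries high for SLBP were those high for RSAD2. SLBP was picked by its likeness to a score that includes RSAD2, so this match is no separate evidence. USP41, a ubiquitin protease gene related in humans to USP18, ranged from 3.29 TPM in replicate 1 of week 72 high to 80.5 TPM in replicate 2 of week 50 low.

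Markers of blood and immune cells also differed between these bulk liver libraries, in which a change in the number of cells and a change in RNA per cell cannot be told apart. All 10 macrophage markers were found, with a summed level of 1198 to 1718 TPM at week 32, 1449 to 2277 TPM in week 50 high and 1201 to 3262 TPM in week 50 low. It was 1163 to 1950 TPM in week 72 high and 1281 to 1959 TPM in week 72 low, so every group overlapped every other. For T and NK cells, 10 of 12 markers were found, with 210 to 276 TPM at week 32, 483 to 649 TPM in week 50 high and 263 to 1011 TPM in week 50 low. They had 196 to 376 TPM in week 72 high and 138 to 360 TPM in week 72 low. Week 50 high was thus above week 32 and both week 72 groups without overlap.

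For B and plasma cells, 6 of 8 markers were found, with 75.1 to 178 TPM at week 32, 65.1 to 457 TPM in week 50 high and 175 to 11084 TPM in week 50 low. Both week 72 groups lay between 57.8 and 545 TPM. The 11084 TPM were in replicate 3 of week 50 low, which also had the highest macrophage, T and NK cell and erythroid sums, at 3262, 1011 and 3782 TPM. Replicate 1 of week 50 low had 6549 TPM of the B and plasma cell markers, and replicates 2 and 4 had 175 and 190 TPM. No macrophage, T and NK cell or B and plasma cell marker found in the table was at 0 in any library. For erythroid cells, 5 of 6 markers were found, with 167 to 370 TPM at week 32, 192 to 290.2 TPM in week 50 high, 154 to 3782 TPM in week 50 low, 665 to 946 TPM in week 72 high and 791 to 1504 TPM in week 72 low. Both week 72 groups were above week 32 and week 50 high without overlap. All 3 tested erythroid genes were higher at an unadjusted p under 0.05 by limma in each week 72 group than at week 32. Of all genes, 2.92% were higher in week 72 high and 3.29% in week 72 low by that measure. By the same measure, 7 of 10 tested T and NK cell genes were higher in week 50 high than at week 32. That held for 8.49% of all genes. In week 50 low 5 of the 10 T and NK cell genes were higher than at week 32, where 6.72% of all genes were. For B and plasma cells, 4 of 5 tested genes were higher in week 50 low than at week 32, against 6.72%. No gene of these lists was called in these comparisons. The summed cell cycle markers were 21.1 to 76.3 TPM at week 32, 28.3 to 126 TPM in week 50 high, 58.8 to 91.7 TPM in week 50 low, 18.2 to 56.1 TPM in week 72 high and 23.1 to 31.9 TPM in week 72 low. The part of these cell types in the levels of the interferon response genes was not tested.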

How the data were processed

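Liver RNA was extracted from hens and sequenced after mRNA enrichment, per the labels' protocols. The authors deposited 1 table of TPM per gene and library, and the submitters' processing notes name the GRCg7b assembly; the aligner, the counting tool and its strand setting are not given by those sources. As TPM keeps no depth, no counting interval is given. Groups were taken from the sample labels. Gene positions and synonyms come from RefSeq's GRCg7b annotation.

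Values were analysed as log2(TPM + 1). A gene was tested where 4 libraries or more had 1 TPM or more. The tests used limma 3.58.1 in R 4.3.3 (moderated two-sided tests with trend, 1 mean per group, all 20 libraries). Benjamini-Hochberg adjustment was made over 12808 genes, with a call at an adjusted p under 0.05. The fit was also run on simulated data in which genes varied independently. That run does not show how the fit behaves for genes that vary together, as the interferon response genes did. Fold changes on the log2(TPM + 1) scale understate those of low genes. Differences are given with their standard errors (SE).

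The gene list, its roles, the pathway lists and the marker lists were chosen with earlier results of these data known. Genes shown in every library were mostly picked, in each role, from those with the widest ranges or the highest mean, or the smallest p in a comparison. Not all genes of that kind are shown so. HELZ2, EIF2AK2, PARP14, MYD88 and NLRC5 were among them and are given without a value for every library. Alternatives were another pseudocount, other filters on low values, median-ratio scaling, a replicate block, fits on the compared groups alone, and leaving out libraries. Promoter motifs were not analysed here. A pathway gene outside the list is not reported here.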

Additional observations from a re-analysis of the deposited data

Results flagged for a closer look

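In 11 of 180 groups of 4 libraries examined, 1 library stood apart from the other 3 of its group by Dixon's criterion; chance marks about 1 in 20 groups. Replicate 4 of week 50 high was low for 3 genes: RSAD2 was at 8.26 TPM, against 31.7 to 35.3 TPM in the other 3, IFI27L2 at 25.6 TPM, against 338 to 483 TPM, and TAP1 at 27.98 TPM, against 54.9 to 59.7 TPM. Replicate 4 of week 50 low was low for PARP12, at 25.2 TPM against 53.1 to 59.7 TPM, and high for DHX58, at 32.2 TPM against 11.5 to 13.8 TPM. Replicate 2 of week 50 low had 143 TPM of RSAD2, against 41.1 to 47.3 TPM.

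At week 32, replicate 1 was low for PARP12, at 22.8 TPM against 32.96 to 35.4 TPM, and for LY6E, at 610.4 TPM against 1251 to 1436 TPM. Replicate 4 of week 32 had 402 TPM of IFI6, against 143 to 158 TPM. At week 72, replicate 4 of the high layers had 14.0 TPM of MYD88, against 18.7 to 19.2 TPM, and replicate 1 of the low layers had 13.2 TPM of TAP1, against 31.0 to 33.9 TPM.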

How the results depend on the processing

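No interferon response gene was called in any comparison with a pseudocount of 0.1, without a filter, with a filter of 5 TPM, with median-ratio scaling, without the mean-variance trend or without the 3 libraries least like the others. Fitting only the groups compared called 1 (IFI6, week 50 low over week 32), and leaving out 1 library called 0 to 4 in week 72 low minus week 50 low and 0 in every other comparison. The replicate numbers were not taken to pair the samples, since not every same-numbered pair exceeded 0.1. A link shared by only some pairs would miss that rule too, so the rule cannot decide whether the samples are paired. Same-numbered libraries deviated with correlations of -0.27 to 0.28 over 40 pairs (median 0.03), 14 of them over 0.1. Differently numbered ones had -0.30 to 0.36 over 120 pairs (median -0.01), 19 of them over 0.1. With the replicate block no interferon response gene was called; the block gave 14 instead of 5 genes at an unadjusted p under 0.05 in week 50 high minus week 32, and 12 instead of 5 called genes of the whole table in week 72 low minus week 50 low. For that comparison all-gene calls were 19 with a pseudocount of 0.1, 0 without a filter, 13 with a filter of 5 TPM, 11 with median-ratio scaling and 0 without the 3 libraries. The 1 call of week 72 high minus week 72 low became 0 under each of these alternatives but median-ratio scaling and the fit without trend. For week 72 high minus week 32 the 1 call became 0 with the pseudocount or the filter of 5 TPM and 3 without a filter or in the fit of 2 groups. The 1 call of the F test became 3 with median-ratio scaling and 0 with the pseudocount, the filter of 5 TPM, the block or without the 3 libraries. Fitting only the groups compared gave 6 calls in week 72 high minus week 50 high and 1 in week 50 low minus week 32. Counts at an unadjusted p were added after the data were seen. By them, 15 interferon response genes were higher in week 50 high than at week 32 in that fit, and 12 lower in week 72 low than in week 50 low without the 3 libraries. No share of all genes by that measure was computed for the block, for fits of the compared groups alone or with libraries left out. Leaving out 1 library at a time, all-gene calls ran from 0 to 58 for the F test, 0 to 19 for the interaction, 0 to 3 for week 50 low minus week 32, 1 to 2 for week 72 high minus week 32, 0 to 1 for week 72 high minus week 50 high, 0 to 63 for week 72 high minus week 72 low, 0 to 71 for week 72 low minus week 32 and 0 to 95 for week 72 low minus week 50 low; the highest of 58, 19, 63, 71 and 95 were without replicate 3 of week 72 low. Interferon response genes at an unadjusted p under 0.05 then ran from 3 to 13 in week 50 high minus week 32, 13 to 26 in week 50 low minus week 32 and 13 to 29 in week 72 low minus week 50 low. The median over the interferon response genes in place of their mean gave a week 50 low score of 5.40, not 5.81. Median-ratio scaling moved the all-gene median of week 50 high minus week 32 from 0.13 to -0.01, and genes with a higher mean there from 32 to 30 of 34. It moved that of week 72 high minus week 50 high from -0.10 to 0.02, and genes with a higher mean from 3 to 9 of 34. At an unadjusted p under 0.05 it also moved the split of all genes, from 1088 higher and 196 lower to 603 and 501 in week 50 high minus week 32. The differences of the 3 genes with the smallest p in each of 9 comparisons were rerun under the alternatives, and none of these changed sign; the signs of other named genes were not compared. The cause of these changes was not tested. Promoter motifs, planned as a description, were not run. TPM gives no depth, so limits from read counts are unknown.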

Other observations

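The libraries with the most DHX58 were also high for several heat shock genes, which were chosen after their values were seen. HSPA2 was at 5918 TPM in replicate 3 of week 32 and at 6093 TPM in replicate 4 of week 50 low, against 36.3 to 3040 TPM in the other 18 libraries. BAG3, a co-chaperone, was at 1651 and 762 TPM in them, against 10.3 to 432 TPM. HSPA8, HSP90AA1, DNAJB1 and HSPB1 were also highest in the same libraries. HSPA5 was not, at 642 and 860 TPM, where the other libraries had 341 to 1407 TPM. In replicate 4 of week 50 low HSPH1 and SERPINH1 were at 57.6 and 40.0 TPM. That was below replicate 4 of week 32, at 69.6 and 54.7 TPM.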
